A study of Mus musculus with 32 samples.

Results

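The proteasome genes described here are the 50 genes, of 19938 named on the array, whose symbol begins with Psm, a letter from a to g and a number. Each was read from 1 probe set, the brightest over 32 arrays where a gene had several, and all 50 were bright enough to be tested beside 15219 genes in all. By role they comprise 8 genes of the alpha ring, 7 of the constitutive beta ring, 6 ATPases and 3 other genes of the base, 8 of the lid, 4 of the immunoproteasome and thymoproteasome, 4 activators, 7 assembly chaperones and the regulator Psmf1. The symbol pattern also takes in Psmc3ip, a meiotic recombination factor, and Psme3ip1, which are not subunits and are only counted. The alpha ring, constitutive beta ring, base and lid together are called the core and cap, 32 genes.

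Each of 16 mice, bred on combined C57BL/6 and FVB/N strains, gave RNA of its left and its right atrium, hybridised to 1 array each, with 4 animals per genotype. The genotypes were dnPI3K-Mst1, which carries both transgenes, Mst1, which carries the kinase Mst1, dnPI3K, which carries a dominant negative form of phosphoinositide 3-kinase, and Ntg, the non-transgenic controls. All were fed standard chow, and the transgenes' promoters, the number of lines and the animals' age and sex are not given in the sources used here. Mst1 is a stress-activated kinase of the Hippo pathway that can promote the death of cardiac myocytes, and phosphoinositide 3-kinase carries growth and survival signals.

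The proteasome is the main protease of the cytosol and nucleus and degrades proteins tagged with ubiquitin. Its core is a barrel of alpha rings, which form the gate, around beta rings, which hold the proteolytic sites, and its cap recognises ubiquitin chains, removes them and threads the substrate into the barrel with a ring of ATPases. Interferon replaces the 3 catalytic beta subunits by Psmb8, Psmb9 and Psmb10, which gives the immunoproteasome and favours peptides for MHC class I, and it induces Psme1 and Psme2, the subunits of an activator that opens the gate without ATP. In the heart this system clears damaged contractile proteins.

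Stk4, which encodes Mst1, was higher than in Ntg atria by 0.79 ± 0.09 (log2, SE) in dnPI3K-Mst1 and by 0.71 ± 0.09 in Mst1, against 0.07 ± 0.09 in dnPI3K. Pik3ca, which encodes a catalytic subunit of phosphoinositide 3-kinase, was higher by 1.16 ± 0.13 in dnPI3K-Mst1, 0.61 ± 0.13 in Mst1 and 0.92 ± 0.13 in dnPI3K. Whether these probe sets read the transgenes is not given in the sources used here. Array medians lay between 5.51 and 5.68 log2, and the 4 arrays with the lowest mean correlation with the others belonged to dnPI3K 3241, dnPI3K-Mst1 1647, Mst1 1466 and Ntg 1662. Side labels went against a marker. Bmp10, a growth factor gene that adult mice express mainly in the right atrium, was at 11.42 log2 or above in 1 array of each animal and at 6.64 or below in the other, and the array with the high level was labelled left in 13 of 16 animals and right in 3. Genotypes were therefore compared on the mean of both arrays of an animal, which does not depend on the side labels. The p-values reflect only how far these animals varied, their number limits the precision, and in bulk atria fewer cells of a type and less RNA per cell cannot be told apart.

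Promoter sequence was available from RefSeq on GRCm38.p6 for 42 of the 50 genes, as 300 bases running from 250 before to 50 after the transcription start. Here 3 short motifs tied to proteasome control were searched on both strands: TGACNNNGC, the core of the antioxidant response element bound by Nfe2l1 and Nfe2l2, the interferon-stimulated response element core, which is GAAA, any 2 bases and GAAA again, and CCAAT. The 6 windows printed are those of Psme1 and Psmb9, which were lower in Mst1 atria, of Psmd4 and Psmd14, which were higher, and of the catalytic subunits Psmb5 and Psmb6, which did not pass the test. Each runs 5′ to 3′ along its gene from 170 bases before the start to 30 after it, and capitals mark any of the 3 motifs.
Psme1, chr14:55578324-55578523, plus strand: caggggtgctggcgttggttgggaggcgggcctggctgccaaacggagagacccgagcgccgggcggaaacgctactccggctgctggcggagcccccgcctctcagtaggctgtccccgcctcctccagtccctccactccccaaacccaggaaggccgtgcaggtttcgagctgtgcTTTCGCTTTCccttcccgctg
Psmb9, chr17:34187301-34187500, minus strand: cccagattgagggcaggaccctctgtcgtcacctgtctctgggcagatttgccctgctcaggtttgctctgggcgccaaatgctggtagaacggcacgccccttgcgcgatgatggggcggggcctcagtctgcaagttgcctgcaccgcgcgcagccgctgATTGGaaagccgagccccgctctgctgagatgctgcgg
Psmd4, chr3:95042585-95042784, minus strand: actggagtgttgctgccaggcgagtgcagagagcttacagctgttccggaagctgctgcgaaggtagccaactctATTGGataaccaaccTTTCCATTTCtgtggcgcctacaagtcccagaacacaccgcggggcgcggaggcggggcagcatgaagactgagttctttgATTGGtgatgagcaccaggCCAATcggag
Psmd14, chr2:61711524-61711723, plus strand: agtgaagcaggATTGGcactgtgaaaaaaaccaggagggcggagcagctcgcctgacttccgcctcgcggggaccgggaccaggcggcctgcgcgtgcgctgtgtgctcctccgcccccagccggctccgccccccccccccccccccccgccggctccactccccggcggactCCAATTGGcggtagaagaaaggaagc
Psmb5, chr14:54617966-54618165, minus strand: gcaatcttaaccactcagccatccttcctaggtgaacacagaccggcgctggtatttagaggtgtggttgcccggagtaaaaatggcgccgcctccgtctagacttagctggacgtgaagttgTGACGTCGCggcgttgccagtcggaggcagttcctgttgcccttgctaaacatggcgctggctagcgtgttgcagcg
Psmb6, chr11:70525187-70525386, plus strand: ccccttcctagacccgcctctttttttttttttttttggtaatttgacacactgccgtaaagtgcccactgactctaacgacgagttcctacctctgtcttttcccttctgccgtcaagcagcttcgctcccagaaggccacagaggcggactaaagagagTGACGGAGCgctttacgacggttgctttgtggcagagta

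The antioxidant core occurred in 6 of the 42 genes, or 14.3%, against 14% of 27025 genes with a promoter window: Psmb5, Psmb6, Psmc6, Psmd9, Psmd12 and Psme4. None of these 6 was called in Mst1 atria, and none of the 10 genes that rose there and have a window held that core in it. The interferon core occurred in 5 genes, or 11.9% against 3.99% of all genes: Psmb3, Psmd4, Psmd9, Psme1 and Psmg4. In Psme1 it lies 9 bases downstream of the start, and Psme1 is the only one of the 5 inducible genes, Psmb8, Psmb9, Psmb10, Psme1 and Psme2, to hold it. CCAAT occurred in 38.1% against 41.1%, with an overlapping pair in Psmd14 that forms the stretch in capitals after its start. A match describes letters and not a bound site.

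Mst1 atria differed from Ntg atria in opposite directions within the family: 11 genes of the alpha ring, base and lid rose, while Psmb8, Psmb9, Psmb10 and Psme1 fell. Of the 50 genes 11 rose and 4 fell at an adjusted p under 0.05, that is 30% called against 26.8% of all genes tested, so that the share called alone is near the background. All 11 that rose belong to the core and cap, 34.4% of its 32 genes against 12.6% of all genes higher, and 0 of the 32 fell against 14.2% of all genes lower. Of the 50 genes, 22 were at an unadjusted p under 0.05, against 36.2% of all genes. In 13 genes every Mst1 animal lay above every Ntg animal and in 5 below, where 11.2% and 14.6% of all genes did so. The core and cap had a median difference of 0.16 log2, with 27 of 32 positive, against a median of -0.00 over all genes.

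The lid held the largest rise. Psmd11, a scaffold subunit of the lid, was at 9.22, 9.62, 9.57 and 9.73 log2 in the 4 Mst1 animals (1466, 1838, 1839 and 1840), against 8.99, 8.98, 9.16 and 8.97 in the 4 Ntg animals. The lowest Mst1 animal, 1466, lay just above the highest Ntg animal, so the groups did not overlap. The difference was 0.51 ± 0.10, or 1.42-fold, with an adjusted p of 0.000736. Psmd14, the deubiquitinase that strips the ubiquitin chain from the substrate, was at 8.81, 8.72, 8.83 and 8.56 in Mst1 atria, against 8.43, 8.24, 8.42 and 8.33 in Ntg atria, again without overlap. It was higher by 0.37 ± 0.09, or 1.29-fold (adjusted p 0.00329). Psmd7, its partner in the catalytic dimer of the lid, was at 9.35, 9.52, 9.52 and 9.43 in Mst1 atria, against 9.03, 9.05, 9.21 and 9.10 in Ntg atria. Here too the groups did not overlap, and Psmd7 rose by 0.36 ± 0.08 (adjusted p 0.00202). With Psmd13, another scaffold subunit (1.19-fold), 4 of the 8 lid genes rose, and Psmd3, Psmd6, Psmd8 and Psmd12 did not pass the test.

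In the alpha ring 4 of 8 genes rose. Psma5 was at 8.72, 8.41, 8.44 and 8.41 in Mst1 atria, against 8.10, 7.97, 8.26 and 7.99 in Ntg atria, a difference of 0.41 ± 0.09 or 1.33-fold (adjusted p 0.00202). All 4 Mst1 animals lay above all 4 Ntg animals, with animal 1466 highest. Psma3 rose 1.26-fold with overlapping groups, Psma2 1.21-fold and Psma1 1.19-fold. Psma8, the spermatocyte form of an alpha subunit, averaged 5.01 over the 32 arrays, close to the filter at 4.48 on a platform whose files give no detection call, and did not pass.

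In the base, 2 of the 3 genes without ATPase activity rose: Psmd4, a ubiquitin receptor, 1.27-fold (adjusted p 0.0015) and Psmd1, the large scaffold of the base, 1.23-fold. Among the 6 ATPases only Psmc4 rose (0.31 ± 0.09, 1.24-fold, adjusted p 0.0141), although all 6 differences were positive. Its values were 7.97, 8.32, 8.36 and 8.33 in Mst1 atria, against 7.94, 7.97, 7.91 and 7.94 in Ntg atria. Animal 1466 lay just above the highest Ntg animal and the other 3 Mst1 animals further above, so the groups did not overlap. In the constitutive beta ring 0 of 7 genes were called by limma, with 1 at an unadjusted p under 0.05, and the median difference was 0.06. Psmb5, the chymotrypsin-like subunit, was at 8.31, 8.18, 8.21 and 8.21 in Mst1 atria, against 8.13, 8.34, 8.17 and 8.05 in Ntg atria, within one another's range. Psmb6 (-0.02 ± 0.09) and Psmb7 (-0.02 ± 0.09), the other catalytic subunits, differed by less than their SE. The 1 gene at an unadjusted p under 0.05, Psmb2, pointed the other way (-0.26 ± 0.10, adjusted p 0.0704).

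**Figure D1:**
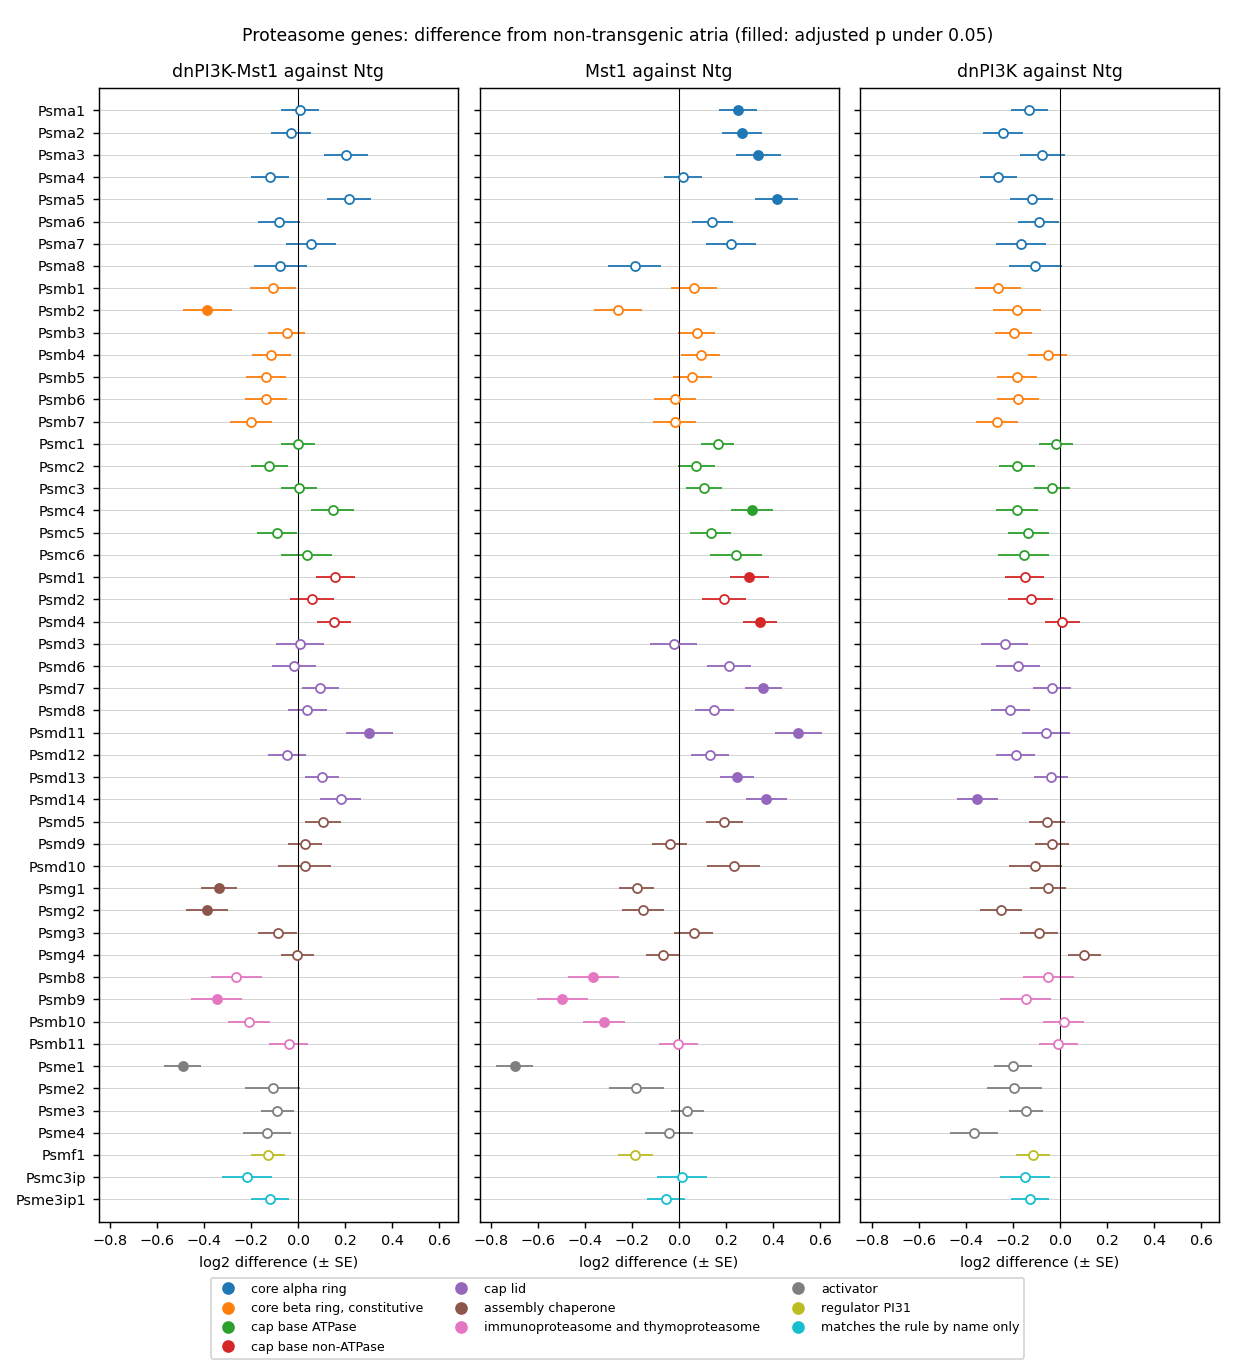
Difference from Ntg atria (log2, horizontal axis, with its SE) for each of the 50 genes, ordered and coloured by role, in dnPI3K-Mst1, Mst1 and dnPI3K atria; filled points have an adjusted p under 0.05. In the Mst1 panel 11 filled points lie right of 0 in the alpha ring, base and lid and 4 left of 0 among immunoproteasome genes and Psme1, while the dnPI3K panel holds 1 filled point and 47 of 50 points left of 0.

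In Mst1 atria 3 of the 4 immunoproteasome and thymoproteasome genes and 1 of the 4 activators fell, where 14.2% of all genes did so. Over all 50 proteasome genes the share lower was 8%, below that background. Psme1, a subunit of the interferon-inducible activator, was at 8.41, 8.34, 8.40 and 8.28 in Mst1 atria, against 9.0, 8.97, 9.22 and 9.04 in Ntg atria. The 2 groups were separated by more than the whole range of either, and the difference was -0.70 ± 0.08, or 1.62-fold lower, with an adjusted p of 1.64e-06. Psme2, its partner in the same ring, was at 7.79, 7.41, 7.46 and 7.33 in Mst1 atria, against 7.73, 7.72, 7.70 and 7.56 in Ntg atria. Animal 1466 was highest of all 8 and the other 3 Mst1 animals lay below the Ntg animals, and the difference of -0.18 ± 0.12 was not called (adjusted p 0.3). A second probe set, shared by Psme2 and its copy Psme2b, was at 6.71, 6.50, 6.44 and 6.48 in Mst1 atria, against 6.83, 6.68, 6.86 and 6.77 in Ntg atria. Psme1 and Psme2 are neighbours on GRCm38, at chr14:55578494-55581527 and chr14:55587440-55591101.

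Psmb9, an inducible catalytic subunit, was at 7.37, 6.98, 7.15 and 6.86 in Mst1 atria, against 7.47, 7.56, 7.67 and 7.66 in Ntg atria. It fell by 0.50 ± 0.11, or 1.41-fold, with an adjusted p of 0.00157. Psmb8, beside it in the MHC region of chromosome 17 (chr17:34198195-34201454, against chr17:34182030-34187330 for Psmb9), was at 6.55, 6.10, 6.24 and 6.22 in Mst1 atria, against 6.59, 6.60, 6.70 and 6.69 in Ntg atria. Psmb10, the third inducible subunit, was at 7.36, 7.09, 7.11 and 7.09 in Mst1 atria, against 7.46, 7.50, 7.57 and 7.41 in Ntg atria. For each of the 3 genes every Mst1 animal was below every Ntg animal, and in each animal 1466 lay nearest to them. Psmb8 was lower 1.29-fold (adjusted p 0.0155) and Psmb10 1.25-fold (adjusted p 0.0103). Psmb11, the thymus form, averaged 4.96 over the 32 arrays and differed by -0.00 ± 0.08.

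Psme3, which forms the nuclear activator not induced by interferon, was at 8.46, 8.64, 8.64 and 8.62 in Mst1 atria, against 8.55, 8.53, 8.61 and 8.54 in Ntg atria. Psme4, an activator of a single large chain, was at 9.40, 9.80, 9.86 and 9.90 in Mst1 atria, against 9.69, 9.82, 9.82 and 9.80 in Ntg atria. Both groups overlapped and neither gene was called. Psmf1, an inhibitor of the core in vitro, was at 6.52, 6.61, 6.77 and 6.82 in Mst1 atria, against 6.87, 6.78, 6.89 and 6.93 in Ntg atria, a difference of -0.19 ± 0.07 that did not pass (adjusted p 0.0676).

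The inducible beta genes were also set against their constitutive counterparts within each animal, relative to the mean of the Ntg animals, as a description without a test. Psmb8 minus Psmb5 was -0.42 ± 0.13 in Mst1 atria and 0.00 ± 0.16 in Ntg atria (SD, n = 4 each). Psmb9 minus Psmb6 was -0.48 ± 0.17 in Mst1 and 0.00 ± 0.08 in Ntg atria, and Psmb10 minus Psmb7 was -0.30 ± 0.09 in Mst1 and 0.00 ± 0.12 in Ntg atria. Every Mst1 animal lay below every Ntg animal for each of the 3 pairs. In dnPI3K-Mst1 atria the same means were -0.13, -0.21 and -0.01 and reached into the Ntg range, and in dnPI3K atria they were 0.13, 0.03 and 0.28. Psme1 was also set against Psme3, which forms another activator and is not its constitutive counterpart. Psme1 minus Psme3 was -0.40 ± 0.13 in dnPI3K-Mst1, -0.74 ± 0.13 in Mst1, -0.06 ± 0.17 in dnPI3K and 0.00 ± 0.08 in Ntg atria.

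**Figure D2:**
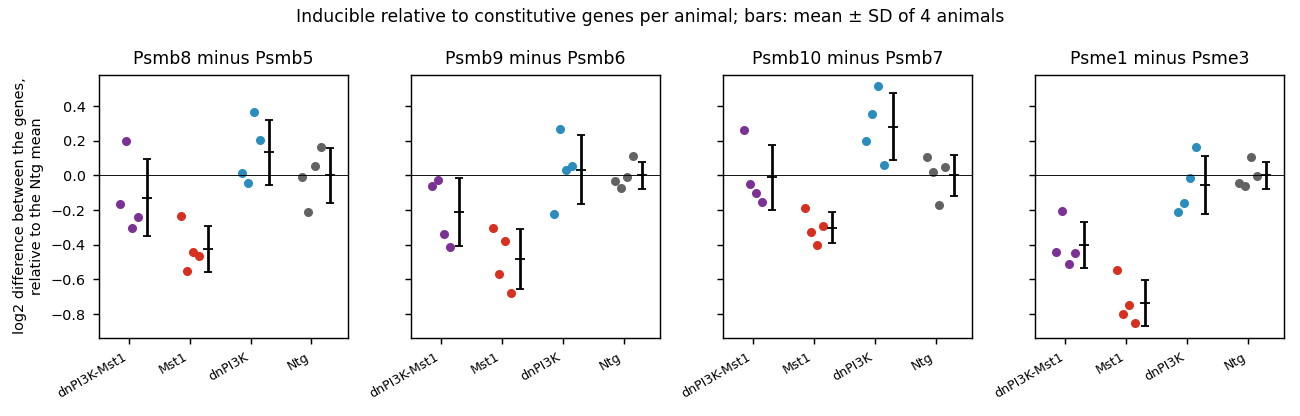
Log2 difference between an inducible beta gene and its constitutive counterpart, or between the activator genes Psme1 and Psme3, in each animal, relative to the Ntg mean (vertical axis), for 4 pairs and 4 genotypes; points are animals and bars mean ± SD of 4. The Mst1 points of Psme1 minus Psme3 lie between -0.85 and -0.55 and the dnPI3K-Mst1 points between -0.51 and -0.21, below the Ntg points.

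Among genes that act with the proteasome, the lists of which were drawn up with earlier results of these data known, the shares called in Mst1 atria are to be read against the 26.8% of all genes called there. They were 22.2% for the interferon response, 25% for muscle ubiquitin ligases, 28.6% for autophagy and 30% for the Vcp segregase, near that background, and 50% for control genes, 36.4% each for chaperones, MHC class I processing and antioxidant targets, and 6.67% for partner proteins. Of 8 control genes 4 rose: Nfe2l1 (0.32 ± 0.10, adjusted p 0.0246), which raises core and cap genes when proteasome capacity is short, and the small Maf proteins with which it binds DNA, Mafk (0.80 ± 0.14), Maff (0.60 ± 0.10) and Mafg (0.26 ± 0.10). Nfe2l2, the stress-responsive relative of Nfe2l1, was at 0.00 ± 0.08. Of 15 partners only Zfand2a rose (0.25 ± 0.08), the activating enzymes Uba6 and Uba3 were not called, and the maturation factor Pomp (0.08 ± 0.09) was not called. Of 11 chaperones 4 rose, with Hspb1 3.0-fold and Hsp90aa1 2.01-fold higher. Genes of the Vcp segregase, which extracts proteins for degradation, gave 3 of 10 higher, led by Ubxn4 (0.54 ± 0.10). Of 16 muscle ubiquitin ligases 3 rose, led by Klhl41 (2.06-fold), and 1 fell, while the atrophy ligases Fbxo32 (0.08 ± 0.11) and Trim63 (-0.11 ± 0.12) were not called. The autophagy list gave 3 higher and 1 lower of 14, with Gabarapl1 (0.77 ± 0.10) and Sqstm1 (0.65 ± 0.10) higher and Map1lc3a (-0.55 ± 0.09) lower. Targets of the antioxidant response gave 1 higher and 3 lower of 11, among them Srxn1 (0.62 ± 0.10) and Gsta4 (-0.55 ± 0.11).

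Other genes of peptide presentation were mixed. Of 11 genes of MHC class I processing 3 fell in Mst1 atria, H2-Q4 (-0.83 ± 0.15), the aminopeptidase Erap1 (-0.45 ± 0.08) and the peptide transporter subunit Tap1 (-0.39 ± 0.10), and Pdia3 rose (0.34 ± 0.09). Of 18 interferon response genes 3 fell, the transcription factor Irf1 (-0.51 ± 0.10, adjusted p 0.000483), Gbp3 (-0.67 ± 0.13) and Ifih1 (-0.33 ± 0.09), and Ifit2 rose (0.42 ± 0.09). Endothelial markers were mostly lower in Mst1 atria. Of 6 markers 4 fell in Mst1 atria (Tek, Kdr, Cdh5 and Tie1), and their mean level ranged from 8.95 to 9.24 in Mst1 atria, against 9.45 to 9.69 in Ntg atria, without overlap. The log2 of their summed level ranged from 11.80 to 12.11 in Mst1 and from 12.17 to 12.38 in Ntg atria. Animal 1466 had the lowest endothelial mean, 8.95, and the highest Psmb8, Psmb9, Psmb10 and Psme1 of the 4 Mst1 animals. It also had the highest mean of the general leukocyte markers, 7.09, and of the macrophage markers, 7.85, among these 4. This animal held one of the 4 lowest array correlations and had a weight of 0.21 in the fit with array weights. Among leukocyte genes 1 of 4 general markers rose, and all 4 differences were positive. Their mean level ranged from 6.65 to 7.09 in Mst1 and from 6.39 to 6.66 in Ntg atria. Of 11 macrophage markers 1 rose and 1 fell. Summed macrophage levels overlapped, at 11.44 to 11.76 in Mst1 and 11.41 to 11.90 in Ntg atria. Of 3 adipocyte markers 2 fell, of 6 fibroblast markers 2 rose, of 7 atrial myocyte markers 2 fell and of 3 lymphocyte markers 0 were called. All these marker counts are to be read against 12.6% of all genes higher and 14.2% lower. The part of these cell types in the proteasome values was not tested.

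**Figure D3:**
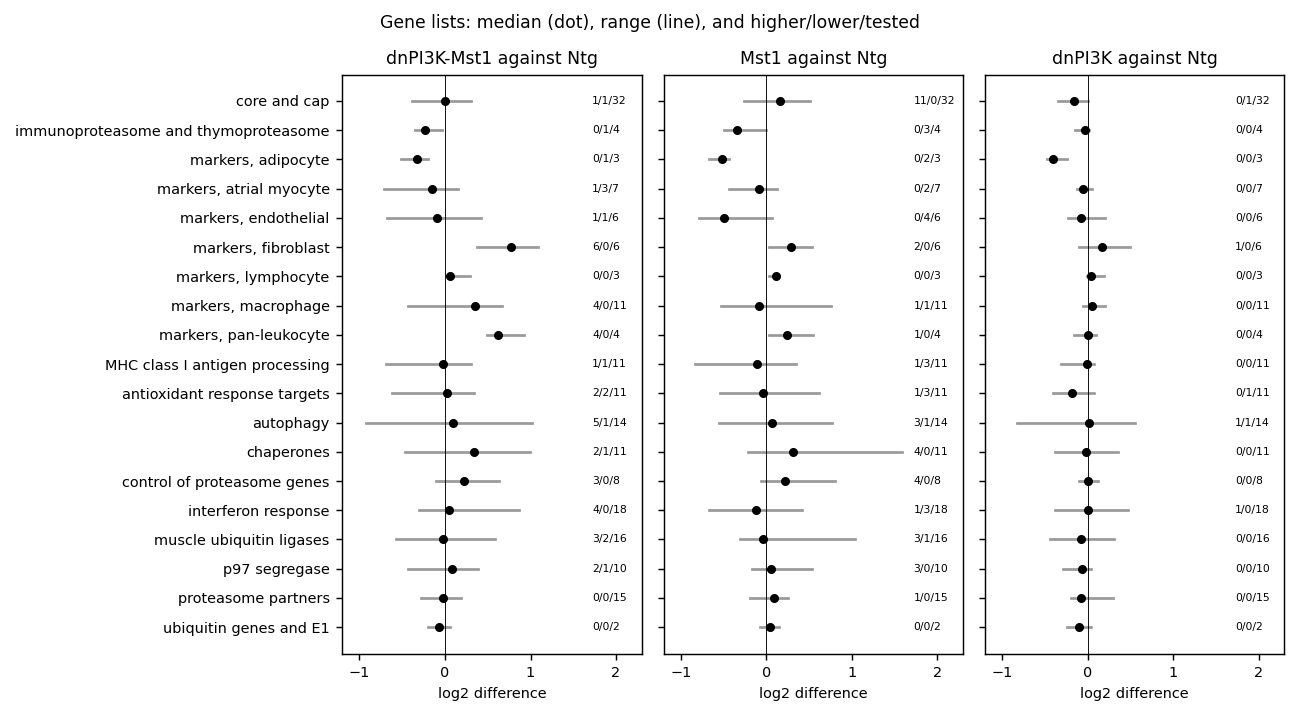
Median (dot) and range (line) of the log2 difference from Ntg atria for the core and cap, the immunoproteasome genes and the other gene lists, in dnPI3K-Mst1, Mst1 and dnPI3K atria; the numbers at the right of each panel count genes higher, lower and tested. In Mst1 atria the core and cap stand at 11, 0 and 32 and the endothelial markers at 0, 4 and 6.

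Calls in Mst1 atria that rested on 1 animal concerned 4 genes. Psma1 was not called without Mst1 1838, Mst1 1839, Ntg 1301 or Ntg 1657 (adjusted p 0.0565 to 0.0764), Psma2 without Mst1 1466, Mst1 1839, Ntg 1657 or Ntg 1662 (0.0542 to 0.0694), Psmc4 without Mst1 1839 (0.0548) and Psmb8 without Mst1 1838 (0.065). With arrays centred on their median Psma1 (0.0706) and Psma2 (0.0685) were not called either, and Psma2 was not called with only the 2 genotypes in the fit (0.0574) or without the 4 animals with the lowest array correlations (0.0879).

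dnPI3K atria lay slightly below Ntg atria for nearly all proteasome genes, with 1 gene passing the test. Psmd14, the cap deubiquitinase, was at 8.14, 7.86, 7.92 and 8.09 in dnPI3K atria, against 8.43, 8.24, 8.42 and 8.33 in Ntg atria. The groups did not overlap, and the difference was -0.35 ± 0.09, or 1.28-fold lower, with an adjusted p of 0.0275. That is 1 of 50 genes, or 2%, against 4.05% of all genes called, 2.75% lower. The call was lost without dnPI3K 1648, dnPI3K 1660, Ntg 1301, Ntg 1662 or Ntg 1834 (adjusted p 0.0545 to 0.0848), and also with the animal as a random block over the 32 arrays (adjusted p 0.0514), where Psme4 and Psmb1 were called lower in its place. The count of genes lower was 4 without Mst1 1466, 3 without Mst1 1840, and 2 without dnPI3K-Mst1 1647 or dnPI3K-Mst1 1649, animals that enter only through the shared estimate of spread.

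The sign was shared more widely than the calls. Of the 50 genes 47 had a negative difference, or 94%, against 51.2% of all genes, and the median was -0.14 against -0.00 over all genes. At an unadjusted p under 0.05 there were 14 of 50 genes, against 16.9% of all genes. In 9 of the 50 genes every dnPI3K animal lay below every Ntg animal, where 7.7% of all genes did so. Psme4 was at 9.41, 9.55, 9.39 and 9.31 in dnPI3K atria, against 9.69, 9.82, 9.82 and 9.80 in Ntg atria, all 4 animals below all 4, and missed the threshold (-0.36 ± 0.10, adjusted p 0.0501). The 7 constitutive beta genes were all negative, from -0.27 ± 0.09 for Psmb7 to -0.05 ± 0.08 for Psmb4, and none was called. Psmb7 was at 9.41, 9.15, 9.27 and 9.39 in dnPI3K atria, against 9.45, 9.57, 9.83 and 9.45 in Ntg atria, without overlap. The immunoproteasome genes had a median of -0.03. Psmb8 was at 6.53, 6.40, 6.93 and 6.51 in dnPI3K atria, against 6.59, 6.60, 6.70 and 6.69 in Ntg atria, with animal 1660 above and the other 3 below the Ntg range. Psmb10 differed by 0.02 ± 0.09. Irf1 (-0.05 ± 0.10) and Nfe2l1 (-0.02 ± 0.10) were not called, nor was any of the 6 endothelial markers (median -0.07).

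In dnPI3K-Mst1 atria the core and cap were near the Ntg level, and of the 5 inducible genes Psme1 and Psmb9 fell. In all 6 genes were called, 12% against 30.6% of all genes: 1 higher against a background of 16.4% and 5 lower against 14.2%. The core and cap had a median of 0.00, with 17 of 32 positive. Of the 8 control genes 3 rose, Mafk (0.64 ± 0.14), Maff (0.61 ± 0.10) and Mafg (0.28 ± 0.10), and Nfe2l1 was not called (0.26 ± 0.10, adjusted p 0.0623). Psmd11 was at 9.30, 9.11, 9.46 and 9.45 in dnPI3K-Mst1 atria (animals 1509, 1647, 1649 and 1650), against 8.99, 8.98, 9.16 and 8.97 in Ntg atria. Animal 1647 lay below the highest Ntg animal, so the groups overlapped, and the difference was 0.30 ± 0.10 (adjusted p 0.0281). It was not called without dnPI3K-Mst1 1649, dnPI3K-Mst1 1650, Ntg 1301, Ntg 1657 or Ntg 1834 (adjusted p 0.0603 to 0.0924), and the number higher was 3 without dnPI3K-Mst1 1647 or Mst1 1466 and 2 without Ntg 1662.

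Psme1 was lower there too, at 8.58, 8.65, 8.43 and 8.59 in dnPI3K-Mst1 atria, against 9.0, 8.97, 9.22 and 9.04 in Ntg atria, without overlap (-0.49 ± 0.08, 1.41-fold, adjusted p 8.01e-05). Psmb9 was at 7.31, 7.46, 7.02 and 7.17 in dnPI3K-Mst1 atria, against 7.47, 7.56, 7.67 and 7.66 in Ntg atria. It was lower 1.27-fold (adjusted p 0.0187), a call lost without dnPI3K-Mst1 1649, dnPI3K-Mst1 1650, Ntg 1662 or Ntg 1834 (adjusted p 0.0514 to 0.0791). Psmb8 (-0.26 ± 0.11) and Psmb10 (-0.21 ± 0.09) were not called. The mean endothelial level overlapped here, at 9.32 to 9.60 in dnPI3K-Mst1 and 9.45 to 9.69 in Ntg atria, with 1 marker higher and 1 lower of 6. Relative to Ntg atria, all 4 general leukocyte markers, 4 of 11 macrophage markers and all 6 fibroblast markers were higher, against 16.4% of all genes. Of 18 interferon genes 4 were higher, or 22.2%, near that share, among them Ifit2 (0.86 ± 0.09) and Ifit3 (0.83 ± 0.14). The part of these cell types and of the interferon genes in the proteasome values was not tested.

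The other 3 genes lower in dnPI3K-Mst1 atria were a beta subunit and a pair of chaperones. Psmg1 and Psmg2 form a dimer that helps the alpha ring to assemble. Psmg1 was at 7.09, 7.17, 7.27 and 7.25 in dnPI3K-Mst1 atria, against 7.42, 7.61, 7.56 and 7.55 in Ntg atria, and Psmg2 at 7.29, 6.88, 7.11 and 7.12, against 7.47, 7.53, 7.62 and 7.33 in Ntg atria. Neither overlapped, and both fell, Psmg1 by 0.34 ± 0.08 (adjusted p 0.00191) and Psmg2 by 0.39 ± 0.09 (adjusted p 0.00211). Psmg1 was not called on arrays labelled left only (-0.29, adjusted p 0.0837) or with the higher Bmp10 (-0.16, adjusted p 0.404). Psmg2 was called in all 14 alternatives. The other assembly chaperones were not called. Psmb2, a beta subunit without a catalytic site, was at 8.06, 7.88, 7.99 and 8.21 in dnPI3K-Mst1 atria, against 8.41, 8.29, 8.73 and 8.27 in Ntg atria, and was lower 1.31-fold (adjusted p 0.00706). That call was lost on arrays labelled left only (adjusted p 0.0635) and on arrays with the higher Bmp10 (0.0655). The array labelled left held the higher Bmp10 in 4 dnPI3K-Mst1 but only 2 Ntg animals, so fits on that label compare unlike mixes of arrays.

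**Figure D4:**
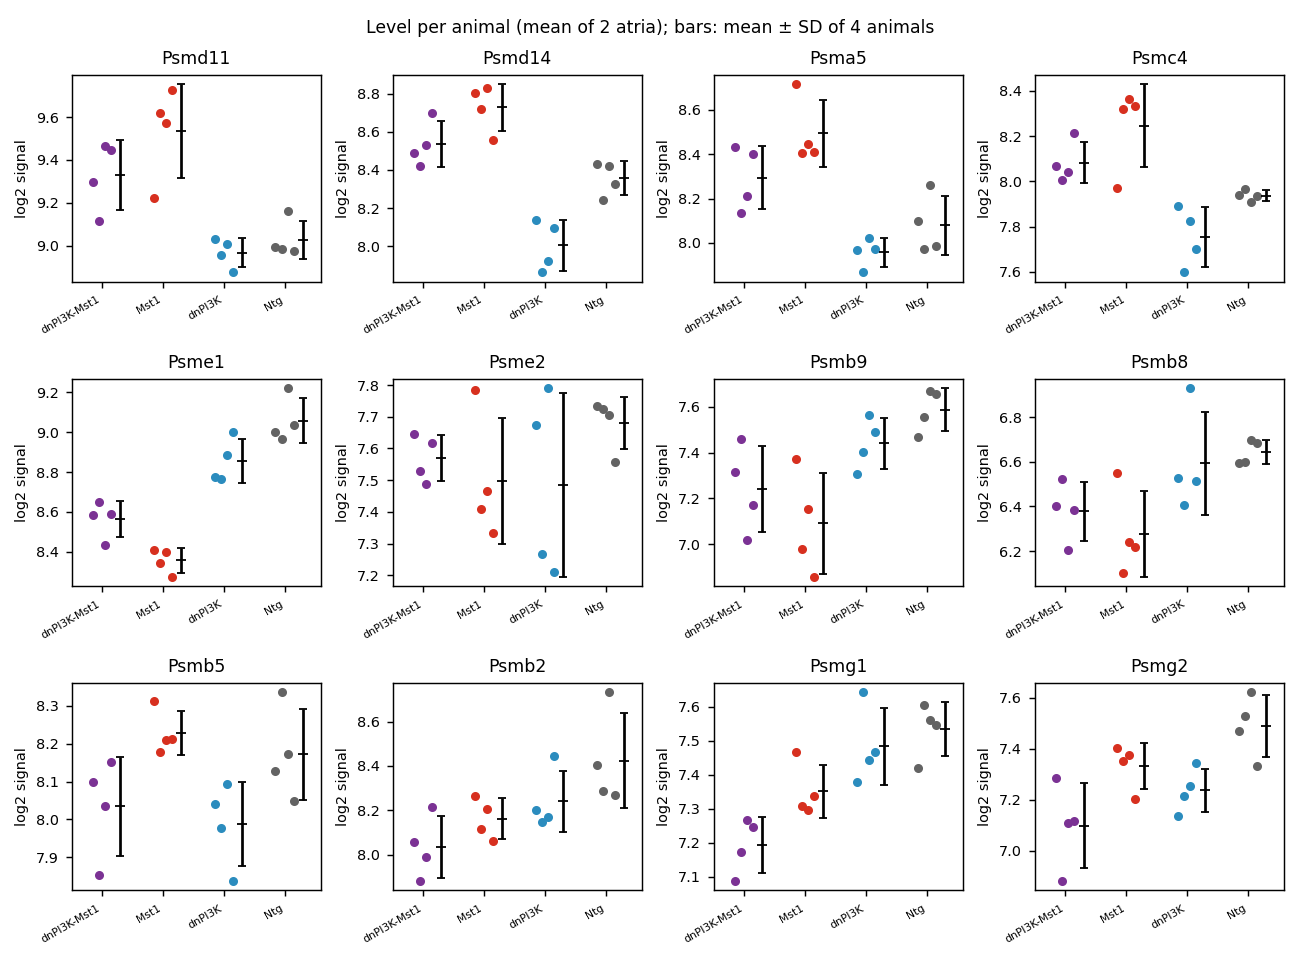
Log2 signal in each animal (mean of 2 atria, vertical axis) for 12 proteasome genes in dnPI3K-Mst1, Mst1, dnPI3K and Ntg mice; points are animals and bars mean ± SD of 4. Psmd11 lies between 9.22 and 9.73 in Mst1 and between 8.97 and 9.16 in Ntg mice, and Psme1 between 8.28 and 8.41 in Mst1 and between 8.97 and 9.22 in Ntg mice.

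Set against the single transgenics, dnPI3K-Mst1 atria lay between them for most core and cap genes. Against Mst1, 0 of 50 genes were called by limma, where 3.5% of all genes were, 2.65% higher and 0.848% lower, with 17 of 50 at an unadjusted p under 0.05 against 17.1% over all genes. In core and cap 30 of 32 differences were negative, with a median of -0.18 against 0.01 over all genes, and in 9 genes every dnPI3K-Mst1 animal lay below every Mst1 animal, where 3.26% of all genes did so. The count lower was 2 without Mst1 1466 and 1 without Mst1 1840. Against dnPI3K, 7 genes were higher and 2 lower, 18% against 21.6% of all genes called, 12.8% higher and 8.8% lower. All 7 were core and cap genes, 21.9% of its 32: Psma3, Psma5, Psmc4, Psmd1, Psmd8, Psmd11 and Psmd14. Psmd14 differed most, at 8.49, 8.42, 8.53 and 8.70 in dnPI3K-Mst1 atria, against 8.14, 7.86, 7.92 and 8.09 in dnPI3K atria (0.53 ± 0.09, 1.45-fold, adjusted p 0.000175), without overlap. Psmd11 was at 9.30, 9.11, 9.46 and 9.45 in dnPI3K-Mst1 atria, against 9.03, 8.96, 9.01 and 8.87 in dnPI3K atria, and Psma5 at 8.43, 8.14, 8.21 and 8.40 in dnPI3K-Mst1 atria, against 7.97, 7.87, 8.02 and 7.97 in dnPI3K atria. Neither gene's groups overlapped. Psmc4 was at 8.07, 8.01, 8.04 and 8.21 in dnPI3K-Mst1 atria, against 7.89, 7.60, 7.83 and 7.70 in dnPI3K atria, also apart. Psme1 (-0.29 ± 0.08, adjusted p 0.0119) and Psmg1 (-0.29 ± 0.08, adjusted p 0.00951) were the 2 lower. Without dnPI3K 1648 the number higher was 4, and without dnPI3K-Mst1 1649 the number lower was 1. The call of Psma3 was lost on leaving out any of 12 animals (adjusted p 0.0503 to 0.13) and that of Psmd8 any of 5 (0.0699 to 0.149), with Psmc4 at 0.0516 without dnPI3K 1648 and Psmd11 at 0.05 and Psme1 at 0.0501 without dnPI3K-Mst1 1649.

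Whether the transgenes' effects add was tested as the difference between dnPI3K-Mst1 and Mst1 less the difference between dnPI3K and Ntg. By limma 0 of 50 genes were called, against 0.513% of all genes, and 1 was at an unadjusted p under 0.05, against 10.9% of all genes. That gene was Psme1 (0.41 ± 0.11, adjusted p 0.119), which differed from Ntg by -0.49 ± 0.08 in dnPI3K-Mst1, -0.70 ± 0.08 in Mst1 and -0.20 ± 0.08 in dnPI3K atria. With array weights, or without the 4 animals with the lowest array correlations, 1 gene was called. The core and cap had a median of -0.01 for this term, with 13 of 32 positive.

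Over the 4 genotypes, the mean level was highest in Mst1 for 32 of the 50 genes, in Ntg for 14, in dnPI3K-Mst1 for 2 and in dnPI3K for 2, and lowest in dnPI3K for 35. For the core and cap mean the order was Mst1 at 8.84 ± 0.03, dnPI3K-Mst1 at 8.67 ± 0.09, Ntg at 8.67 ± 0.06 and dnPI3K at 8.52 ± 0.06 log2 (SD, n = 4 each), with dnPI3K-Mst1 and Ntg within each other's range. Psmd14 had the widest range of genotype means, 0.72, followed by Psme1 at 0.70 with Ntg highest and Mst1 lowest. Psmb11 had the narrowest, 0.04.

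Most core and cap genes were also correlated with one another over animals pooled across genotypes, and no correlation within a genotype was computed. Among Mst1 animals the parts did not run together. The alpha ring mean was highest in 1466 (8.76) and lowest in 1840 (8.38). The mean of the base genes without ATPase activity was lowest in 1466 (9.20) and highest in 1840 (9.51). Over the 16 animals, which share the genotype differences, the Pearson correlation of a gene with the mean of the other core and cap genes was highest for Psma1 (0.93), Psmd8 (0.91) and Psmd14 (0.90) and lowest within the core and cap for Psma8 (-0.07) and Psmb2 (0.04). It was negative for the inducible genes Psme1 (-0.53), Psmb10 (-0.49), Psmb9 (-0.47) and Psmb8 (-0.42), and also for the chaperones Psmg4 (-0.53) and Psmg1 (-0.31), for Psmf1 (-0.20) and for Psmb11 (-0.12), while Psme2 stood at 0.20, apart from its partner. Outside the family the genes most like the core and cap mean were Pno1 (0.94), a ribosome assembly factor, Rchy1 (0.94), a ubiquitin ligase, Get3 (0.91), which targets tail-anchored proteins to membranes, Mboat2 (0.90), an acyltransferase, and Vps29 (0.90), a retromer subunit. These correlations are descriptions over 16 animals and carry no test.

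The core and cap stood further above Ntg in one array of each Mst1 animal than in the other. No single gene passed the test of whether its Mst1 difference from Ntg was unlike in both arrays. The difference between both arrays within Mst1 animals was described and not tested. The arrays were compared in this way after their values were seen, by ordering both arrays of an animal by Bmp10 and not by their labels. In the array with the lower Bmp10 the core and cap mean was 9.09, 8.91, 8.96 and 8.91 log2 in Mst1 animals 1466, 1838, 1839 and 1840, against 8.66, 8.63, 8.84 and 8.68 in Ntg animals 1301, 1657, 1662 and 1834. In the array with the higher Bmp10 it was 8.66, 8.75, 8.74 and 8.69 in Mst1 animals, against 8.63, 8.64, 8.68 and 8.63 in Ntg animals. The Mst1 arrays with the lower Bmp10 thus all lay above every other array of both genotypes.

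Gene by gene, 25 of 32 core and cap genes, or 78.1%, were higher in the lower-Bmp10 array in 4 of 4 Mst1 animals, where 14.8% of all genes were. The same count was 4 of 32 in dnPI3K-Mst1 (background 7.56%), 1 in dnPI3K (12.2%) and 3 in Ntg mice (12.5%). In dnPI3K mice animal 1660 ran the other way from the other 3, with the core and cap mean at 8.45 in the lower-Bmp10 array and 8.64 in the higher. By animal, 31, 29, 31 and 26 of 32 genes were higher in the lower-Bmp10 array in Mst1 and 26, 27, 3 and 30 in dnPI3K mice. The counts were 22, 22, 13 and 23 in dnPI3K-Mst1 and 18, 13, 27 and 23 in Ntg mice. The mean differed by 0.35 in dnPI3K 3241, against 0.43, 0.16, 0.21 and 0.23 in the Mst1 animals. For Psmd14, the lower-Bmp10 arrays were at 8.95, 8.91, 8.99 and 8.99 in Mst1 mice, against 8.34, 8.26, 8.52 and 8.39 in Ntg mice. Its higher-Bmp10 arrays were at 8.66, 8.53, 8.66 and 8.12 in Mst1 mice, against 8.52, 8.23, 8.33 and 8.27 in Ntg mice. The first set did not overlap and the second did.

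Fitted on the lower-Bmp10 arrays alone, Mst1 against Ntg gave 18 genes higher and 4 lower of 50 (27% of all genes called), and on the higher-Bmp10 arrays alone 1 higher and 4 lower (14.8%). The median of the core and cap was 0.28 and 0.07. The 4 genes lower were not the same 4 as on the mean of both arrays. Psmb10 was not called on the lower-Bmp10 arrays (adjusted p 0.0585). On the higher-Bmp10 arrays Psmb8 (0.189) and Psmb10 (0.0765) were not called, and 1 core and cap gene was called lower. The difference between both effects was then tested gene by gene with limma, and 0 of 50 genes passed, against 1.08% of all genes, with 8 of 50 at an unadjusted p under 0.05 against 10.8% of all genes. The largest of these in core and cap was Psmd14 (0.43 ± 0.18, adjusted p 0.364). The median of this difference over core and cap was 0.25, with 28 of 32 positive, against 0.04 over all genes. Psme1 and Psmb9 were lower in both sets of arrays: Psme1 by -0.67 ± 0.11 and -0.73 ± 0.11, and Psmb9 by -0.58 ± 0.13 and -0.42 ± 0.12 in lower-Bmp10 and higher-Bmp10 arrays. Psmd11 was higher in both, by 0.59 ± 0.11 and 0.43 ± 0.12.

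**Figure D5:**
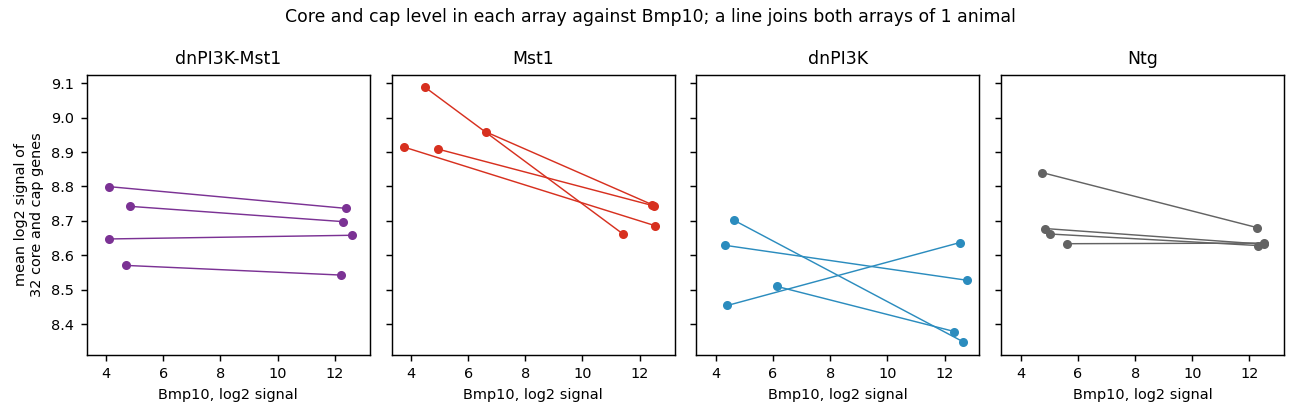
Mean log2 signal of the 32 core and cap genes in each array (vertical axis) against the log2 signal of Bmp10 in the same array (horizontal axis), by genotype; a line joins both arrays of an animal. The 4 Mst1 lines fall to the right, with the lower-Bmp10 arrays between 8.91 and 9.09, and the Ntg arrays lie between 8.63 and 8.84.

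By the side labels as given, 0 of 50 genes differed between arrays labelled right and left over the 4 genotypes, and 0 of all 15219 genes were called (0%). At an unadjusted p under 0.05 there were 0 of 50 genes, against 8.13% of all genes, and the differences ran from -0.05 to 0.12. Since Bmp10 was high in the array labelled left in 13 animals and in the array labelled right in 3, this comparison mixes both kinds of array.

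Where a gene had several probe sets that carry its symbol alone, all lay above Ntg in Mst1 atria. The 3 probe sets of Psma3 were higher by 0.32, 0.33 and 0.34, the 2 of Psma5 by 0.39 and 0.41, the 2 of Psmb3 by 0.07 and 0.11, the 2 of Psmc1 by 0.16 and 0.19, and the 2 of Psmd2 by 0.19 and 0.27.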

How the data were processed

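Total RNA (100 ng per sample) was hybridised to Affymetrix Mouse Gene 1.0 ST arrays, per the labels' protocols. The files hold 1 log2 signal per probe set, as deposited by the authors. The submitters' processing notes name Affymetrix Expression Console and PLIER, without versions or steps, and base 2 is inferred from values between 1.16 and 14.08. No further scaling was applied. Of 35512 probe sets the 21789 with a single symbol were used, the brightest for each of 19938 genes. A gene was tested if its mean reached 4.48 log2, the 30th percentile over probe sets, as 15219 did.

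The 2 arrays of an animal were averaged, since they share its number in the labels. Genotypes were compared with limma 3.58.1 (lmFit, eBayes with a trend, two-sided) in R 4.3.3 over 16 animals. A gene is called at a Benjamini-Hochberg adjusted p under 0.05 over all genes tested, and a fold is the antilog of the log2 difference. The fit was tested on simulated data. Members and lists were chosen with earlier results of these data known. Values per animal are given for the 4 called members with the largest rise and fall in each pairwise comparison, the inducible genes, their constitutive counterparts and the activators; from other lists up to 3 called genes with the largest change, Nfe2l1, Nfe2l2, Irf1, Fbxo32, Trim63, Stk4, Pik3ca and Bmp10; further called genes were named after their values were seen. Alternatives were the filter, centring, quantile normalization, array weights, the animal as a random block, single labelled sides, all probe sets, no trend, 2 genotypes only and leaving out animals. The split by Bmp10 and leaving out the 4 animals with the lowest array correlations were added after seeing the data; the split's difference was fitted without a trend.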

Additional observations from a re-analysis of the deposited data

Results flagged for a closer look

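Among the 19 proteasome genes with values per animal, 76 groups of 4 animals were examined for an animal set apart from the other 3, and 9 held one. The rule flags about 1 in 20 single groups by chance. The groups share animals and hold correlated genes, so that rate gives no expected count for the 76. Mst1 animal 1466 accounts for 5: Psma5 at 8.72 log2 (the others 8.41 to 8.44), Psmb6 at 9.21 (9.07 to 9.09) and Psmb10 at 7.36 (7.09 to 7.11) were high in it, and Psmc4 at 7.97 (8.32 to 8.36) and Psme3 at 8.46 (8.62 to 8.64) were low. This animal also held one of the 4 lowest array correlations and the lowest weight, 0.21, in the fit with array weights. In dnPI3K-Mst1 animal 1647 Psmd7 was at 9.0 (9.24 to 9.28). In Ntg animals, Psmd11 was at 9.16 in 1662 (8.97 to 8.99), Psme2 at 7.56 in 1834 (7.70 to 7.73) and Psme4 at 9.69 in 1301 (9.80 to 9.82).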

How the results depend on the processing

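Counts are of the 50 proteasome genes called higher or lower. The array labelled left held the higher Bmp10 in 4 dnPI3K-Mst1, 3 Mst1, 4 dnPI3K and 2 Ntg animals. Fits on 1 labelled side against Ntg therefore mix both kinds of array unequally, and genotype is partly confounded with the kind of array there. The 11 higher in Mst1 against Ntg became 1 on arrays labelled left only, 18 on lower-Bmp10 arrays and 1 on higher-Bmp10 arrays (8 to 12 leaving out 1 animal), and the 4 lower became 2 on arrays labelled right only and 7 with array weights (3 to 6). On lower-Bmp10 and on higher-Bmp10 arrays 4 were lower too, but not the same 4 genes. The 1 lower in dnPI3K against Ntg was Psmd14. On lower-Bmp10 arrays the 1 lower was Psme4 (-0.51, adjusted p 0.0184), and Psmd14 was not called (adjusted p 0.141). The count was 2, Psmd14 and Psme4, with centring, all probe sets, no trend, 2 genotypes only or without the 4 animals with the lowest array correlations, 2 with the random block for the animal, Psme4 and Psmb1 and not Psmd14, 4 with array weights and 0 on arrays labelled left only, labelled right only or with the higher Bmp10 (0 to 4). For dnPI3K-Mst1 against Ntg the 1 higher became 0 with centring, arrays labelled left only or higher-Bmp10 arrays, 6 with array weights or without the 4 lowest, 2 on arrays labelled right only or with 2 genotypes only and 3 without the animals listed at the start (0 to 3), and the 5 lower became 2 on arrays labelled left only and 3 on higher-Bmp10 arrays (4 to 7). Against Mst1 the 0 lower became 2 with quantile normalization or without the 4 lowest, 6 with array weights and 3 without the animals listed at the start or on lower-Bmp10 arrays (0 to 2), and 1 was higher with array weights. Against dnPI3K the 7 higher became 16 with array weights, 15 without the 4 lowest, 2 on arrays labelled left only or with the higher Bmp10 and 3 on arrays labelled right only (4 to 9), and the 2 lower became 5 with array weights and 0 on arrays labelled left only or with the higher Bmp10 (1 to 3). Non-additivity gave 1 with array weights or without the 4 lowest and 0 to 0 without single animals. The cause of these shifts was not tested beyond single-side fits using 1 array per animal. No called direction reversed, and Psme1 stayed lower in Mst1 and dnPI3K-Mst1 against Ntg under every setting run. The animals listed at the start were Mst1 1466, dnPI3K 3241, dnPI3K 1507 and Ntg 1662, of which dnPI3K 1507 did not hold a low correlation. The Bmp10 settings and the 4 lowest were chosen after seeing the data. Animals could not be paired across genotypes because animal numbers are unique to a genotype. Only both arrays of an animal were compared within it.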
